A study of Mus musculus with 8 samples.

Results

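The genes described here encode the translation initiation and elongation factors of mouse skeletal muscle. They were taken as every row of the 8 deposited count tables whose symbol begins with Eif and a digit, or with Eef1 or Eef2, leaving out Eif4ebp1, Eif2ak2 and Eif2ak4. This rule found 61 of 23282 rows, and 59 of them passed edgeR's filter on low counts, which kept 13174 genes in all. The filter removed Eif4e1b, with 3 counts in RP 2 and none in the other 7 libraries, and Eif3j1, with 4 to 12 counts per library. Eif5a2 had the lowest levels of those kept, 1.18 to 2.43 CPM, the counts scaled to a fixed library size. The symbol rule also took in 5 genes that restrain translation (Eif4ebp2, Eif4ebp3, Eif2ak1, Eif2ak3 and Eef2k) and the methyltransferase gene Eef2kmt, and these are described apart.

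The tissue was gastrocnemius, one of the calf muscles, and RNA was sequenced from the 3' ends of transcripts. The mice were C57BL/6, given as 4 weeks old in the labels. The 3 libraries titled Normal belong to mice injected under the skin with saline and given 200 µl of water by mouth. The 3 titled Control belong to mice injected with 1000000 Lewis lung carcinoma cells, a mouse lung tumour line, and given the same water after 2 weeks of tumour growth. The 2 titled RP belong to mice with the same tumour that received Paeonia lactiflora, a peony, as a 30% ethanol extract at 100 mg/kg each day for 2 weeks. The series asked how this extract acts in cancer cachexia, the loss of muscle that comes with a tumour, and tumours were matched for size between groups before dosing. The table names of the 6 Normal and Control libraries carry the other group's name. Groups here follow the titles, so every direction holds for titled groups. If the table names are right, the Control against Normal comparison changes sign and RP against Control changes place with RP against Normal. The labels do not tie each library to a separate animal, so the p-values reflect only how these samples spread, which may be technical.

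Initiation factors bring the small ribosomal subunit, the initiator tRNA and the mRNA together and find the start codon, and elongation factors then move the ribosome along the coding sequence. In muscle, amino acids, insulin and load control both steps through the kinase complex mTORC1, and stress controls initiation through phosphorylation of eIF2. Protein synthesis and protein breakdown together set fibre size, and mRNA levels of these factors are only one of the layers at which synthesis is regulated.

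The libraries held 9528011 to 12333767 counts, and the translation factor rows took 0.961 to 1.21% of them. All 12 muscle fibre marker genes were present in every group, with a summed level of 86005 to 119353 CPM in Normal-titled, 112849 to 133507 in Control-titled and 136451 to 140206 in RP libraries. Against Normal-titled muscle, 3 of these 12 were called higher in Control-titled (Pvalb, Mylpf and Mb) and 1 lower (Des), where 10.4% of all genes were called. In RP, 1 was called higher (Pvalb), where 2.5% of all genes were called. RNA of other cell types also differed between the groups. Haemoglobin genes took 4.57, 9.56 and 19.7% of the counts of Normal 1, 2 and 3, against 1.41 to 1.61% in Control-titled libraries and 0.862 and 3.83% in RP 1 and 2. All 11 erythroid genes found summed to 43467 to 236944, 12861 to 16260 and 8973 to 39926 CPM in these groups. The 13 neutrophil genes summed to 972 to 1995 CPM in Normal-titled, 16.4 to 28.7 in Control-titled and 41.4 to 510.3 in RP libraries, with Ltf, Elane and Mpo at 0 throughout the Control-titled group and Elane and Mpo at 0 in RP. In Normal-titled libraries Elane had only 1, 1 and 0 counts and Mpo 0, 0 and 2, and neither passed the filter. All 9 fibroblast and tenocyte genes were found in every group and summed to 5289 to 7959 CPM in Normal-titled, 7816 to 8687 in Control-titled and 7084 to 7334 in RP libraries; against Normal-titled muscle 6 of the 9 were called higher in Control-titled (median log2 change 1.31) and 5 in RP (0.99). All 7 Schwann cell genes were found and summed to 551 to 771, 712 to 1393 and 254 to 469 CPM, and in RP all 7 had a log2 change below 0 against Control-titled muscle (median -1.16, 1 called) and against Normal-titled muscle (median -0.81, 1 called). Levels are given as CPM on library sizes scaled by edgeR's TMM method and are listed in the order of the replicate numbers, and log2 changes are given ± SE. In whole tissue, fewer cells of a type and less RNA per cell cannot be told apart.

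Part of the initiation factor mRNAs were lower in Control-titled than in Normal-titled muscle, and none of the 9 elongation factor mRNAs was called; a difference between these kinds of factor was not tested. By edgeR's quasi-likelihood test at an adjusted p under 0.05, 12 of the 59 translation factor genes were called, where 10.4% of all genes were. Of these 12, 11 fell, against 5.45% of all genes called lower: Eif3j2, Eif2b3, Eif1, Eif5b, Eif3a, Eif3c, Eif4a1, Eif1a, Eif3e, Eif5 and Eif3b. The other, the stress kinase gene Eif2ak1, rose, where 4.99% of all genes were called higher. The falls were moderate, from 1.40-fold for Eif3b to 1.95-fold for Eif3j2. Across all 59 genes, 49 had a log2 change below 0, where 49.9% of the 13174 genes tested did. The median was -0.24, beside 0.00043 for all genes tested. With the log2 level of the haemoglobin gene Hba-a1 as a covariate, 36 of the 59 were below 0 and the median was -0.068, beside -0.0065 for all genes. Hba-a1 stood at 14878 to 81503 CPM in Normal-titled, 5229 to 6716 in Control-titled and 3741 and 14677 in RP libraries. All Normal-titled libraries were above all others, so no fit with this covariate can separate haemoglobin level from group.

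Where the libraries of the titled groups did not overlap, the translation factor genes were mostly lower. All 3 Control-titled libraries lay below all 3 Normal-titled ones for 21 of the 59 genes, against 14.7% of all genes. The reverse held for 3 genes, Eif5a, Eif2ak1 and Eif2s3y, against 16.6% of all genes. The 12 calls depended on single libraries: of the 12, 1 (Eif3j2) was still called without Control 1 and 1 (Eif3j2) without Control 3, 4 without Normal 2, 5 without Control 2, 7 without either RP library, 9 without Normal 3 and 11 without Normal 1. Counting further genes, 21 of the 59 were called without Normal 1. With Hba-a1 as a covariate, 2 calls were left, Eif3a and Eif2ak1. Upper-quartile scaling called 2 genes higher and 6 lower. The counts under these alternatives are given without the share of all genes called there, so they describe only how the calls moved. The part of neutrophil, fibroblast and Schwann cell RNA in these differences was not tested.

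**Figure D1:**
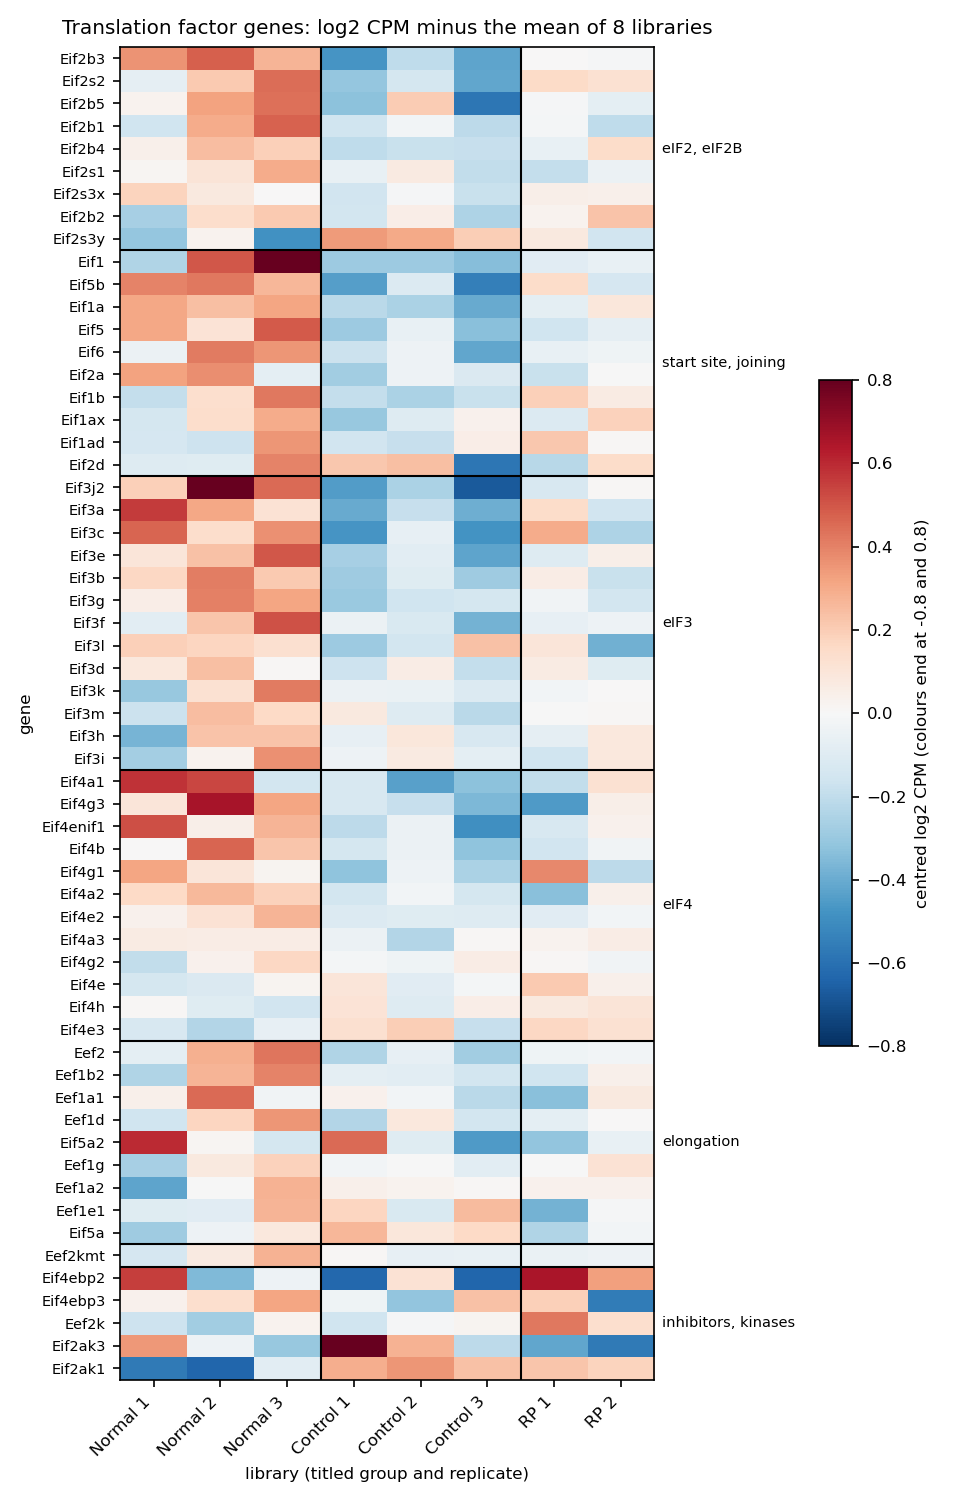
Log2 CPM of each of the 59 translation factor genes (rows, grouped by role) in each library (columns, by titled group), minus the gene's mean over the 8 libraries; red is above the mean and blue below, and colours end at -0.8 and 0.8. In the initiation factor blocks the Normal-titled columns are mostly red and the Control-titled columns mostly blue, with RP paler; 49 of the 59 genes had a log2 change below 0 between these groups.

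**Figure D2:**
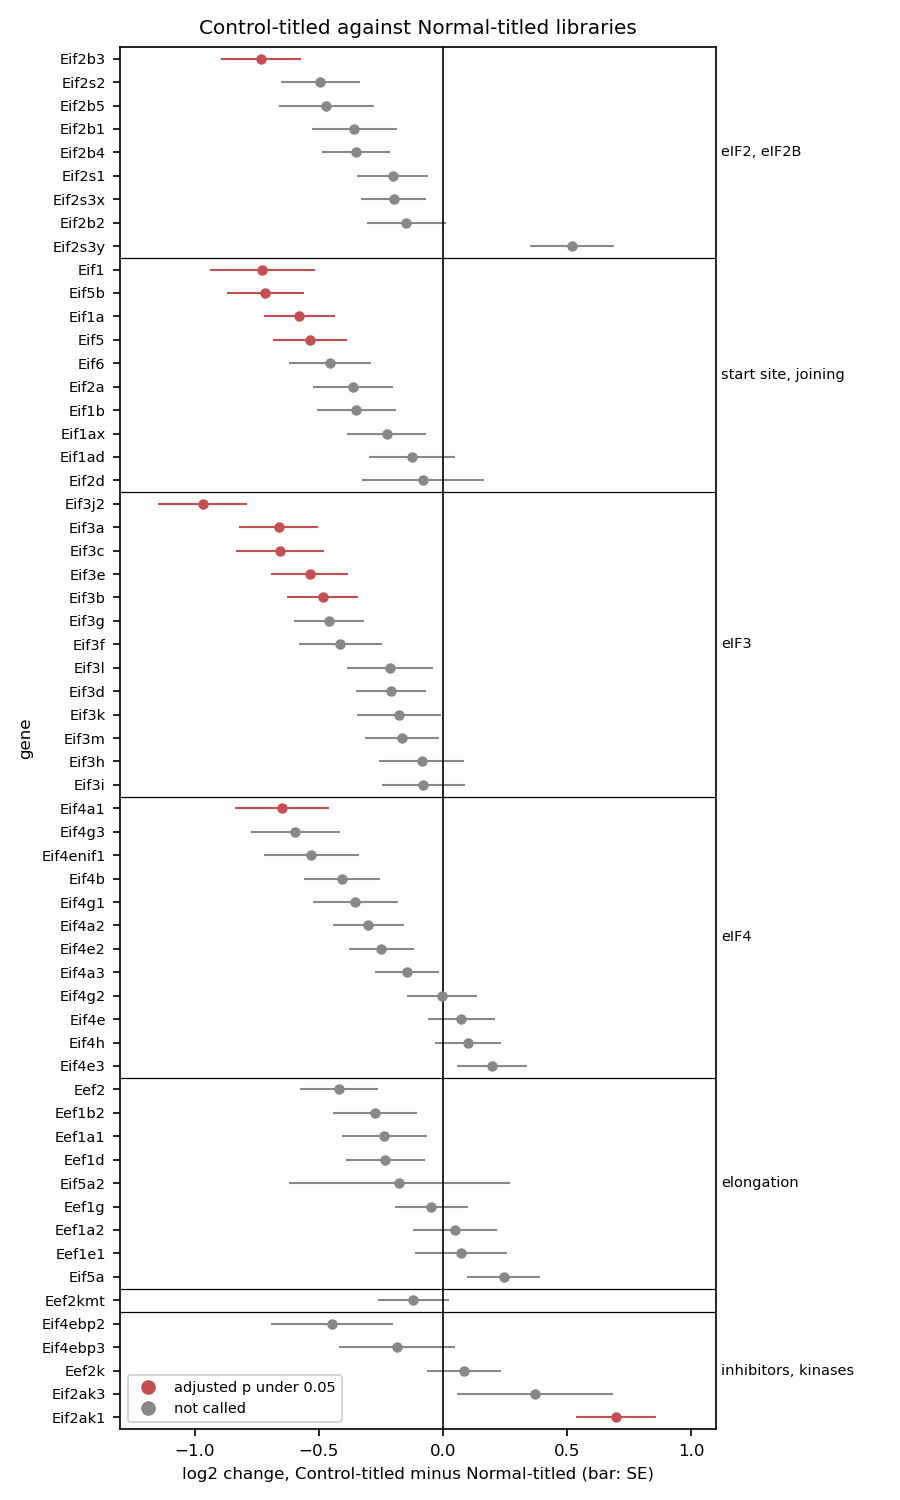
Log2 change of each gene, Control-titled minus Normal-titled (points), with its SE (bars); genes called at an adjusted p under 0.05 are red. The 11 red points on the left are all initiation factors and the red point on the right is Eif2ak1; no elongation factor is red.

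Promoters are shown for 3 of the genes, as a description of the bases before their start sites. Whether the genes share control at their promoters was not tested. RefSeq promoters (build GRCm38.p6) were given for 48 of the 61 genes, 62 windows in all of 250 bases before a start. They were searched on both strands for the E-box CACGTG, the letters bound by MYC and related factors, and for TGATGNAA, an element of the stress factor ATF4; an E-box can share its last letters TG with the start of an ATF4 element. The E-box letters stood in 13 of the 62 windows (20.97%, 11 genes), against 6.02% of 32851 windows of all genes. The median GC content was 61.4% in the translation factor windows and 52.4% in all. The ATF4 letters stood in 2 of 62 windows (3.23%), against 3.45% of all. Among the 12 genes called, 8 had a window, and 1 held an E-box (Eif4a1) and 0 an ATF4 element. Such a match is a description of the letters, and a window without one says only that these letters are not in it. The 3 windows below were chosen among those with an E-box and no exon in the window: Eif4a1, which was called, and Eef2 and Eif3f, which were not. They run 5′ to 3′ along the gene and end at the base before the start, with the E-box in capitals. It begins 189 bases before the start in Eif4a1 (chr11:69672424-69672673, minus strand), 43 in Eef2 (chr10:81176381-81176630, plus strand) and 68 in Eif3f (chr7:108934165-108934414, plus strand).
Eif4a1: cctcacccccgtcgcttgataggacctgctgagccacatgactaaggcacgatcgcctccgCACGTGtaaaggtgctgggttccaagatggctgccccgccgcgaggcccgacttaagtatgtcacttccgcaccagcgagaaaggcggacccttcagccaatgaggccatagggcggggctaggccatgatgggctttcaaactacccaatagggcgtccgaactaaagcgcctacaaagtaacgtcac
Eef2: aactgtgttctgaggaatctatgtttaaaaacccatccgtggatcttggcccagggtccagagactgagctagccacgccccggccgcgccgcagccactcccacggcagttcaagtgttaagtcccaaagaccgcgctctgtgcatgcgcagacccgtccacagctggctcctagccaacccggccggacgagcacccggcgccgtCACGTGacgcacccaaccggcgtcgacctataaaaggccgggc
Eif3f: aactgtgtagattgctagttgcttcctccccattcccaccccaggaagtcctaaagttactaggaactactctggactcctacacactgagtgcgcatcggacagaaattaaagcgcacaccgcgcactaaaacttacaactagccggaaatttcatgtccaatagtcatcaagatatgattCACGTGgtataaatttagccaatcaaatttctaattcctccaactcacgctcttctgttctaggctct

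The complex eIF2 carries the initiator tRNA to the ribosome, and eIF2B recharges it with GTP. Of their 9 genes, 1 fell, 8 had a log2 change below 0, and the median was -0.35. For this role and those below, the shares of all genes were 5.45% called lower and 49.9% below 0. Eif2b3 (chr4:117019399-117086852), which encodes the gamma subunit of eIF2B, stood at 22.8, 24.7 and 21.5 CPM in the Normal-titled libraries, 12.8, 15.4 and 13.3 in the Control-titled and 17.8 and 17.7 in RP. All Normal-titled libraries were above both RP libraries, and these were above all Control-titled ones. The fall from Normal-titled to Control-titled was 1.66-fold (log2 change -0.73 ± 0.16 SE, adjusted p = 0.0109).

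The catalytic epsilon subunit, Eif2b5, had 41.5, 50.8 and 55.1 CPM in the Normal-titled libraries, 32.5, 46.8 and 27.3 in the Control-titled and 40.4 and 38.5 in RP. Control 2 lay within the Normal-titled range, so these groups overlapped, and the log2 change of -0.47 ± 0.19 did not pass (adjusted p = 0.141). For Eif2s2, the beta subunit of eIF2, the level was 786, 952 and 1126 CPM in the Normal-titled libraries, 667, 749.9 and 618 in the Control-titled and 918 and 898 in RP. All Control-titled libraries lay below the Normal-titled ones, and RP lay within the Normal-titled range, but the log2 change of -0.49 ± 0.16 missed the threshold (adjusted p = 0.0675). Eif2s1, the alpha subunit that stress kinases phosphorylate, had a log2 change of -0.20 ± 0.14 (adjusted p = 0.403).

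The gamma subunit of eIF2 has copies on the X and the Y chromosome, and neither was called. The X copy, Eif2s3x, stood at 49.8, 46.4 and 44.1 CPM in the Normal-titled libraries, 39.6, 43.7 and 39.0 in the Control-titled and 45.5 and 45.2 in RP. The Y copy, Eif2s3y, stood at 18.4, 23.3 and 16.3 CPM in the Normal-titled libraries, 28.9, 28.2 and 26.1 in the Control-titled and 24.1 and 20.6 in RP. Control-titled libraries were below the Normal-titled ones for the X copy and above them for the Y copy, without overlap in either. Their changes did not pass the test (log2 change -0.20 ± 0.13, adjusted p = 0.371, and 0.52 ± 0.17, adjusted p = 0.0682). The log2 ratio of X to Y copy within a library was 1.29 ± 0.252 (SD, n = 3) in Normal-titled and 0.55 ± 0.092 (SD, n = 3) in Control-titled libraries, an exact permutation p of 0.1 (two-sided), the smallest that 3 against 3 allows, and 0.6 after adjustment over 15 ratio tests.

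Of the 10 genes of factors that choose the start codon and join the ribosomal subunits, 4 fell, and all 10 had a log2 change below 0 (median -0.41), though Eif2d stood at 0.49 with Hba-a1 as a covariate. Eif5b (chr1:37998010-38055579), the GTPase that joins the large subunit, stood at 395, 402 and 362 CPM in the Normal-titled libraries, 222, 279 and 206 in the Control-titled and 333 and 274 in RP. Every Normal-titled library was above every RP library, and the Control-titled group spread into the RP range through Control 2. The fall was 1.64-fold (log2 change -0.71 ± 0.16, adjusted p = 0.0109). Eif5 (chr12:111538101-111546753), the GTPase-activating protein of eIF2, stood at 261, 227 and 296 CPM in the Normal-titled libraries, 172, 202 and 167 in the Control-titled and 188 and 199.8 in RP. Its Control-titled and RP libraries shared one range below all Normal-titled ones, and the fall was 1.45-fold (log2 change -0.53 ± 0.15, adjusted p = 0.0368).

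Eif1a and Eif1 encode small proteins that keep the scanning ribosome open until it meets a start codon. Eif1a stood at 31.9, 30.4 and 32.0 CPM in the Normal-titled libraries, 22.1, 21.6 and 19.4 in the Control-titled and 24.4 and 27.4 in RP, so the 3 groups formed separate bands with little spread. Its fall was 1.49-fold (log2 change -0.58 ± 0.14, adjusted p = 0.0219). Eif1 (chr11:100319949-100322099) stood at 661, 1102 and 1369 CPM in the Normal-titled libraries, 638, 639 and 615 in the Control-titled and 731 and 748 in RP. Normal 1 lay near the Control-titled level and below both RP libraries, and the Normal-titled libraries ranked in the order of their haemoglobin shares. The fall of Eif1 was 1.66-fold (log2 change -0.73 ± 0.21, adjusted p = 0.0448), and the log2 change with Hba-a1 as a covariate was -0.017 (adjusted p = 0.982).

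The other 6 genes of this group were not called. Eif6, which keeps free large subunits from joining too early, had a log2 change of -0.46 ± 0.16 (adjusted p = 0.0971). Eif2d, a factor for initiation without eIF2, had the change nearest to 0, -0.081 ± 0.24 (adjusted p = 0.873). In an ordering of all 13174 genes by likeness to Eif1a over the 8 libraries, the highest Pearson correlations of log2 CPM were with Maff (r = 0.989), Serpinb10 (r = 0.988) and Cebpd (r = 0.986). These 8 points are single libraries of 3 groups that differ in blood-cell RNA, so the correlations are given as a description.

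eIF3 is the largest initiation complex and holds the small subunit, the mRNA and the other factors together. All 13 subunit genes tested had a log2 change below 0 (median -0.41), though Eif3i stood at 0.48 with Hba-a1 as a covariate, and 5 fell. Eif3a (chr19:60761116-60790693), the largest core subunit, stood at 357, 301 and 262 CPM in the Normal-titled libraries, 183, 213 and 185 in the Control-titled and 269 and 218 in RP. Control-titled libraries were all below the Normal-titled ones, and RP 1 lay inside the Normal-titled range. The fall was 1.58-fold (log2 change -0.66 ± 0.16, adjusted p = 0.0177). Its partner in the core, Eif3b (chr5:140419305-140443358), had 45.1, 53.3 and 46.4 CPM in the Normal-titled libraries, 33.0, 37.5 and 33.0 in the Control-titled and 41.9 and 35.5 in RP. The Normal-titled libraries were above all others, and the fall was 1.40-fold (log2 change -0.48 ± 0.14, adjusted p = 0.0481).

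Eif3c (chr7:126546911-126566366), the core subunit that contacts eIF1 and eIF5, stood at 165, 132 and 155 CPM in the Normal-titled libraries, 86.4, 114 and 85.8 in the Control-titled and 147 and 101 in RP. RP 1 was within the Normal-titled range and RP 2 within the Control-titled range, so the RP pair straddled the gap between the groups. The fall from Normal-titled to Control-titled was 1.58-fold (log2 change -0.66 ± 0.18, adjusted p = 0.0330). Eif3e (chr15:43250040-43282736), a subunit of the outer octamer, stood at 247, 272 and 327 CPM in the Normal-titled libraries, 192, 218 and 173 in the Control-titled and 216 and 239 in RP. The Normal-titled libraries were highest without overlap, and the fall was 1.45-fold (log2 change -0.54 ± 0.15, adjusted p = 0.0420).

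Eif3j2 had the largest change of the 59 genes. It encodes eIF3j, a loosely held subunit at the decoding site, and stood at 147, 231 and 177 CPM in the Normal-titled libraries, 94.7, 109 and 81.0 in the Control-titled and 118 and 129.7 in RP. The 3 titled groups were separate, and the fall was 1.95-fold (log2 change -0.97 ± 0.18, adjusted p = 0.00454). Of the 50-base words in the last 300 bases of its transcript, 80.1% also occur in Eif3j1, so short reads could be given to either copy. With the counts of both copies summed, a choice made after the data were seen, the log2 change was -0.96 (adjusted p = 0.00461).

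Eif3f, a subunit that binds mTORC1 and is linked to muscle fibre size, had 179, 221 and 269.9 CPM in the Normal-titled libraries, 183, 174 and 145 in the Control-titled and 181 and 184 in RP. Control 1 overlapped Normal 1, and the log2 change of -0.41 ± 0.17 did not pass (adjusted p = 0.136). Its promoter is one of those printed above, with an E-box and without a call. Eif3i, which sits with Eif3g on the mobile module, had the smallest change of the complex, -0.079 ± 0.17 (adjusted p = 0.813).

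**Figure D3:**
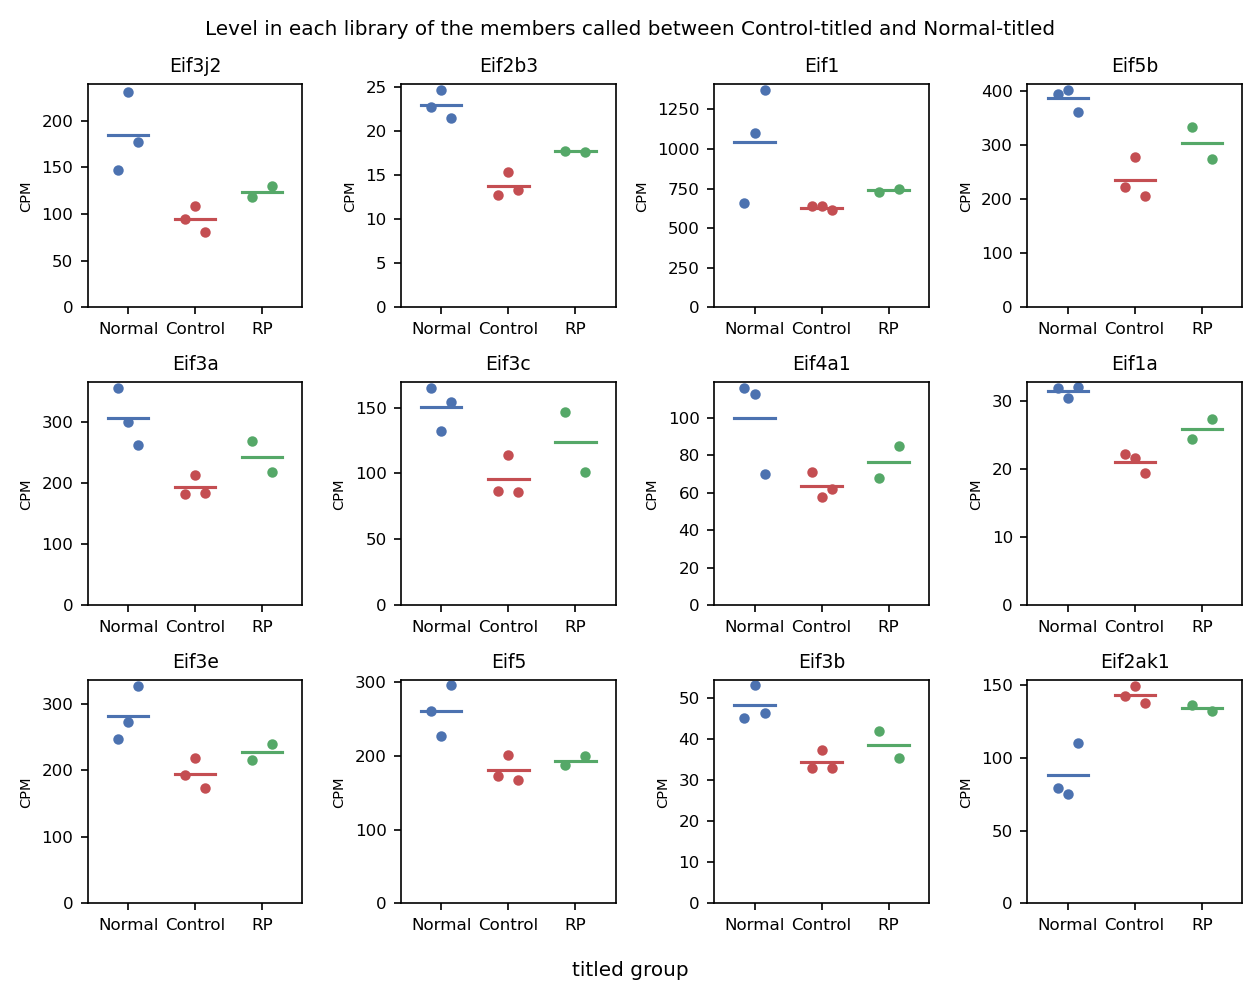
CPM (linear axes from 0) of the 12 genes called between Control-titled and Normal-titled muscle, 1 point per library and a line at each group's mean. For Eif1a, Eif2b3 and Eif3j2 the 3 titled groups are separate; for Eif4a1 and Eif1 the Normal-titled points are spread, with Normal 3 of Eif4a1 at 70.3 and Normal 1 of Eif1 at 661 CPM.

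The eIF4 factors bind the mRNA cap and unwind the leader. The list used here also holds Eif4enif1, Eif4e2 and Eif4a3, and not each of its genes need have this role. Of 12 genes, 1 fell, where 5.45% of all genes were called lower. A log2 change below 0 was found in 9 of the 12, where 49.9% of all genes were below 0, and the median was -0.27. Eif4a1 (chr11:69666936-69672423), one of the copies of the helicase, stood at 116, 113 and 70.3 CPM in the Normal-titled libraries, 71.3, 57.6 and 61.9 in the Control-titled and 67.9 and 84.8 in RP. Normal 3 lay below Control 1, so the groups overlapped, and the fall of 1.57-fold was barely past the threshold (log2 change -0.65 ± 0.19, adjusted p = 0.0467). Eif4a2, the other cytoplasmic copy, stood at 299, 319.8 and 304 CPM in the Normal-titled libraries, 242, 264 and 243 in the Control-titled and 212 and 275 in RP. Normal-titled libraries were above all others, within a small distance, and the log2 change of -0.30 ± 0.14 did not pass (adjusted p = 0.20).

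Among the scaffold genes, Eif4g3 had the largest change, with 309.7, 458 and 361 CPM in the Normal-titled libraries, 266, 256 and 226 in the Control-titled and 212 and 300.04 in RP. All Normal-titled libraries were above all others, but its log2 change of -0.60 ± 0.18 narrowly missed the threshold (adjusted p = 0.0515). Eif4g1, the main scaffold of the cap complex, had 261, 224 and 213 CPM in the Normal-titled libraries, 167, 204 and 176 in the Control-titled and 274 and 181 in RP. RP 1 was the highest library and RP 2 lay in the Control-titled range, and the log2 change between the titled groups was -0.35 ± 0.17 (adjusted p = 0.214). Eif4g2, a scaffold that does not bind the cap protein, had a log2 change of -0.0040 ± 0.14 with a 95% interval of -0.31 to 0.30.

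The cap-binding protein gene Eif4e had 107, 109 and 119.8 CPM in the Normal-titled libraries, 126, 111 and 117 in the Control-titled and 137 and 122 in RP. Its groups overlapped, and the log2 change of 0.074 ± 0.13 had a 95% interval of -0.22 to 0.36. Eif4e3, a relative of Eif4e with a weaker hold on the cap, had the highest change of the group, 0.20 ± 0.14 (adjusted p = 0.409). Eif4b, which assists the helicase, had -0.41 ± 0.15 (adjusted p = 0.109). Within a library, the log2 ratio of Eif4e to its relative Eif4e2 was 1.04 ± 0.039 (SD, n = 3) in Normal-titled and 1.36 ± 0.0996 (SD, n = 3) in Control-titled libraries, without overlap (exact permutation p = 0.1, adjusted 0.6).

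None of the 9 genes listed as elongation factors, Eef1e1 among them, was called, and not each need act in elongation. Their median log2 change was -0.18, and 6 of the 9 were below 0. Eef2, the translocase that moves the ribosome by one codon, had 1031, 1325 and 1462 CPM in the Normal-titled libraries, 919.7, 1039.9 and 897 in the Control-titled and 1064 and 1072 in RP. Control 2 was just above Normal 1, the other Normal-titled libraries were the highest of all, and the log2 change was -0.42 ± 0.16 (adjusted p = 0.109, 95% interval -0.76 to -0.079). Its promoter, printed above, holds an E-box close to the start.

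Eef1a1 and Eef1a2 encode the forms of eEF1A, which delivers aminoacyl-tRNA; adult muscle fibres switch from the first to the second as they mature. Eef1a1 had 744, 992 and 710.1 CPM in the Normal-titled libraries, 741, 713 and 624 in the Control-titled and 575 and 764 in RP. Eef1a2 had 453, 606 and 738 CPM in the Normal-titled libraries, 625, 621 and 612 in the Control-titled and 623 and 623 in RP. Both genes overlapped between groups, and the 3 Control-titled libraries were close together for Eef1a2 while the Normal-titled ones were spread. The log2 changes were -0.24 ± 0.17 (95% interval -0.61 to 0.13) and 0.049 ± 0.17 (-0.32 to 0.41). The log2 ratio of Eef1a1 to Eef1a2 was 0.46 ± 0.444 (SD, n = 3) in Normal-titled and 0.16 ± 0.115 (SD, n = 3) in Control-titled libraries, a difference of -0.30 (exact permutation p = 0.4, two-sided, adjusted 0.6). In RP it was -0.12 and 0.29. The last 300 bases of Eef1a1 share 69.0% of their 50-base words with 17 other genes, mostly processed copies, so its counts may be split.

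The exchange factor genes of eEF1A had log2 changes of -0.27 ± 0.17 (Eef1b2), -0.23 ± 0.16 (Eef1d) and -0.047 ± 0.15 (Eef1g), none called. Eif5a, which helps the ribosome through proline runs and carries hypusine, stood at 183, 217 and 237 CPM in the Normal-titled libraries, 269, 238 and 249 in the Control-titled and 189 and 219.9 in RP. The Control-titled libraries were all above the Normal-titled ones, by a narrow margin at Control 2, and the log2 change of 0.25 ± 0.15 did not pass (adjusted p = 0.312). Its relative Eif5a2 was near the detection limit, with a log2 change of -0.18 ± 0.44. Eef2kmt, a methyltransferase of eEF2, had -0.12 ± 0.14 (adjusted p = 0.650).

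Among the 5 genes that restrain translation, 1 rose, where 4.99% of all genes were called higher, and the median log2 change was 0.085. Eif2ak1 (chr5:143817792-143902717) encodes HRI, a kinase that phosphorylates eIF2 when haem is scarce or mitochondria are stressed and is known from red-cell precursors. It stood at 79.0, 75.4 and 110.5 CPM in the Normal-titled libraries, 143, 149.5 and 137 in the Control-titled and 137 and 132 in RP. All Control-titled and RP libraries were above all Normal-titled ones, and Normal 3, with the highest haemoglobin share, was the highest of its group. The rise was 1.62-fold (log2 change 0.70 ± 0.16, adjusted p = 0.0143), and 1.02 on the log2 scale with Hba-a1 as a covariate (adjusted p = 0.0481).

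Eif4ebp2, which binds eIF4E and blocks the cap complex, had 52.2, 27.9 and 34.6 CPM in the Normal-titled libraries, 23.0, 38.4 and 22.9 in the Control-titled and 55.8 and 44.6 in RP. Its Normal-titled and Control-titled ranges overlapped, and the log2 change was -0.45 ± 0.25 (adjusted p = 0.275). Eif2ak3, the kinase PERK of the endoplasmic reticulum, had 0.37 ± 0.31 (adjusted p = 0.493). Eef2k, which phosphorylates and stops eEF2, had 0.085 ± 0.15 (adjusted p = 0.769), and Eif4ebp3 had -0.19 ± 0.23 (adjusted p = 0.669).

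Other genes of the pathway give the setting. Of all genes, 5.45% were called lower and 4.99% higher in Control-titled against Normal-titled muscle. Eif4ebp1, the translation repressor that the rule left out, fell 4.03-fold, from 166, 308 and 287 CPM in the Normal-titled to 68.5, 59.4 and 60.7 in the Control-titled libraries (log2 change -2.01 ± 0.21, adjusted p = 0.0000777), with 99.5 and 92.5 in RP. The other kinases left out, Eif2ak2 and Eif2ak4, had log2 changes of 0.27 ± 0.30 and -0.30 ± 0.30 and were not called. Of 20 mTORC1 signalling genes tested, 4 fell, with these log2 changes: Sesn1 (-1.35) and Ddit4 (-1.34), which restrain mTORC1, the eIF4E kinase gene Mknk2 (-1.22) and Mtor itself (-0.55). Of 7 genes around the eIF2 phosphatase and GCN2, 3 fell: Impact (-1.35), an inhibitor of GCN2 activation, Ppp1r15a (-1.26), the induced phosphatase subunit, and Atf4 (-0.64). Of 9 poly(A)-binding and termination genes, 2 fell: Pabpc1 (-0.92), the poly(A)-binding protein, and Etf1 (-0.73), the release factor. None of these lists had a gene called higher. Of the 9 hypusine and diphthamide genes 0 were called (median -0.12), and of the 10 mitochondrial translation factors 0 were called (median 0.016).

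Some rows share exons or 3' sequence with other genes, and the sources used here do not state which strand was counted. Of the 61 genes, 26 share exon bases with another gene and 17 share a 50-base word of their 3' end. Among the 12 called, Eif5b overlaps Rev1 and Eif2ak1 overlaps Aimp2 and Ankrd61, all on the opposite strand, while Eif4a1 and Eif5 hold small nucleolar RNAs. Eif1 shares 25.8% of its 3' words with 16 other genes and Eif5 shares 3.6% with 3.

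**Figure D4:**
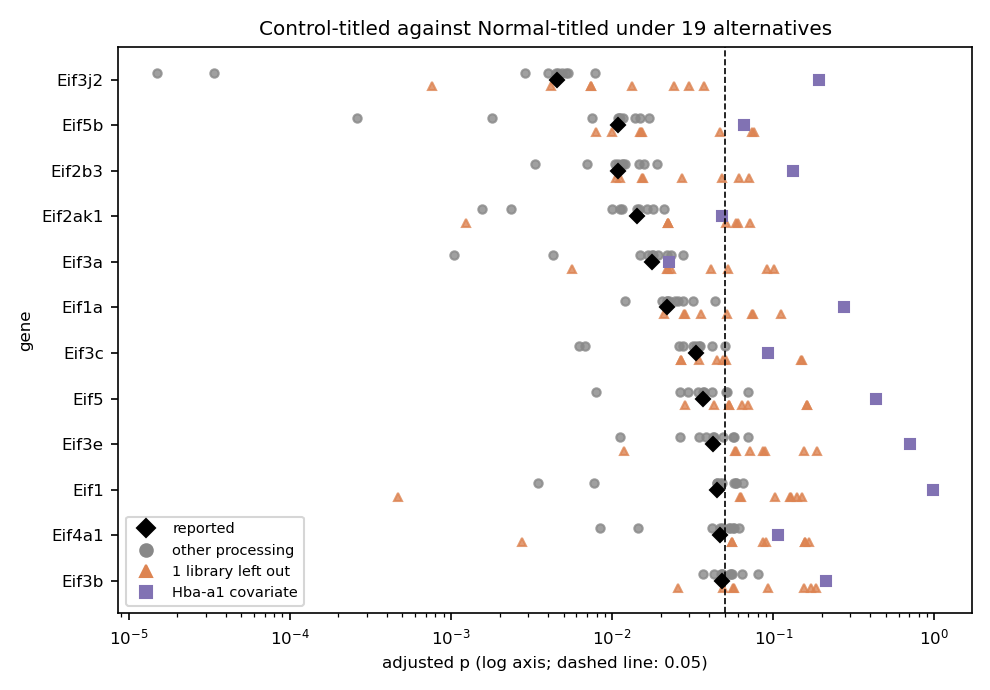
Adjusted p (log axis) of the 12 called genes as reported (black), under other processing (grey), with 1 library left out (orange) and with Hba-a1 as a covariate (purple); the dashed line is 0.05. Eif3j2 stayed left of the line in 18 of 19 alternatives and Eif4a1 in 6; most points to the right are orange or purple.

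RP and Control-titled muscle were compared to see what the extract changed in tumour-bearing mice. edgeR's quasi-likelihood test called 0 of the 59 translation factor genes, where it called 0.175% of all genes. DESeq2 and limma-voom also called 0. At an unadjusted p under 0.05 there were 3 genes, Eif4ebp2, Eif2s2 and Eif2ak3, or 5.08% of the 59, against 8.98% of all genes. The median log2 change was 0.094, beside -0.0038 for all genes. Of the 59, 44 were above 0, where 6524 of the 13174 genes tested were. The median of the 59 was 0.059 without Control 3 and 0.15 without Control 2. Both RP libraries stood above all Control-titled ones for Eif4ebp2 (log2 change 0.84 ± 0.27, adjusted p = 0.335) and for Eif2s2 (0.42 ± 0.18, adjusted p = 0.516), at the levels given above. Eif2ak3 had 9.44, 6.10 and 4.34 CPM in Control-titled and 3.77 and 3.39 in RP libraries, so RP was lower without overlap (log2 change -0.89 ± 0.37, adjusted p = 0.516). Such separation was not counted over all genes in the RP comparisons. Other translation factor genes also had both RP libraries above all Control-titled ones, among them Eif1, Eif1a and Eif2b3. Without a filter on low counts, 1 gene was called, Eif4ebp2.

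The genes called between the titled groups were chosen with the same Control-titled libraries, so a lean away from the Control-titled level is partly built in here. Several of these genes gave wide intervals. Eif3j2 had a log2 change of 0.39 ± 0.20 (95% interval -0.040 to 0.82), Eif1a 0.30 ± 0.16 (-0.051 to 0.64), Eif2b3 0.36 ± 0.18 (-0.027 to 0.75) and Eif5b 0.37 ± 0.17 (-0.0048 to 0.74). Each of these intervals reaches from about no change to a rise of more than 0.6 on the log2 scale. These genes are only some of those called lower, and others differed less. Group means were 194 CPM in RP and 181 in Control-titled libraries for Eif5, and 38.7 and 34.5 for Eif3b. Eif2ak1 had -0.092 ± 0.18 (-0.48 to 0.29), an interval on both sides of 0. By role, 9 of 10 start-site genes and 11 of 13 eIF3 genes were above 0, with medians of 0.19 and 0.11, and the 9 elongation factors had a median of 0.0080. In the pathway lists, Impact rose (log2 change 1.75 ± 0.22, adjusted p = 0.00425), from 11.2, 9.70 and 8.95 CPM in Control-titled to 34.6 and 32.6 in RP libraries.

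Against Normal-titled muscle, RP differed in tumour, extract and the RNA of blood and connective-tissue cells together. Here too edgeR's quasi-likelihood test called 0 of 59 genes, where 2.5% of all genes were called. DESeq2 called 1, Eif2ak1, and limma-voom 0. At an unadjusted p under 0.05 there were 6 genes, or 10.2% of the 59, against 17.1% of all genes: Eif5, Eif3j2, Eif4g3 and Eif3g were lower in RP, and Eif2ak1 and Eef2k higher. The median log2 change was -0.22, beside -0.037 for all genes, and 48 of the 59 were below 0, where 53.8% of all genes were. With Hba-a1 as a covariate this median was 0.0065, with 29 of the 59 below 0, and without Normal 3 it was -0.11, with 38 below 0. Eif2ak1 came closest to the threshold, with a log2 change of 0.61 ± 0.18 and no overlap (adjusted p = 0.0911). It passed without Normal 3, and Eif1 and Eif3j2 passed without Normal 1.

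Values of the lower genes were -0.58 ± 0.20 for Eif3j2, -0.56 ± 0.20 for Eif4g3, -0.43 ± 0.17 for Eif5 and -0.35 ± 0.16 for Eif3g, a subunit that binds RNA at the entry channel. Eef2k, the eEF2 kinase gene, stood at 32.8, 30.2 and 37.5 CPM in Normal-titled and 49.1 and 40.2 in RP libraries, with RP above and no overlap (log2 change 0.42 ± 0.16, adjusted p = 0.215). All 13 eIF3 genes were below 0 (median -0.29), as were 9 of 10 start-site genes (median -0.29). Pathway genes lower in RP by the same test were Eif4ebp1 (log2 change -1.40 ± 0.23), Mknk2 (-0.76 ± 0.18), Sesn1 (-0.95 ± 0.23) and Pabpc1 (-0.91 ± 0.18). The comparisons with Normal-titled libraries share those libraries, and both RP comparisons share the RP pair. Control-titled against Normal-titled and RP against Control-titled share the Control-titled libraries, so opposite signs in them are partly built in. The values of the comparisons are therefore only set side by side.

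**Figure D5:**
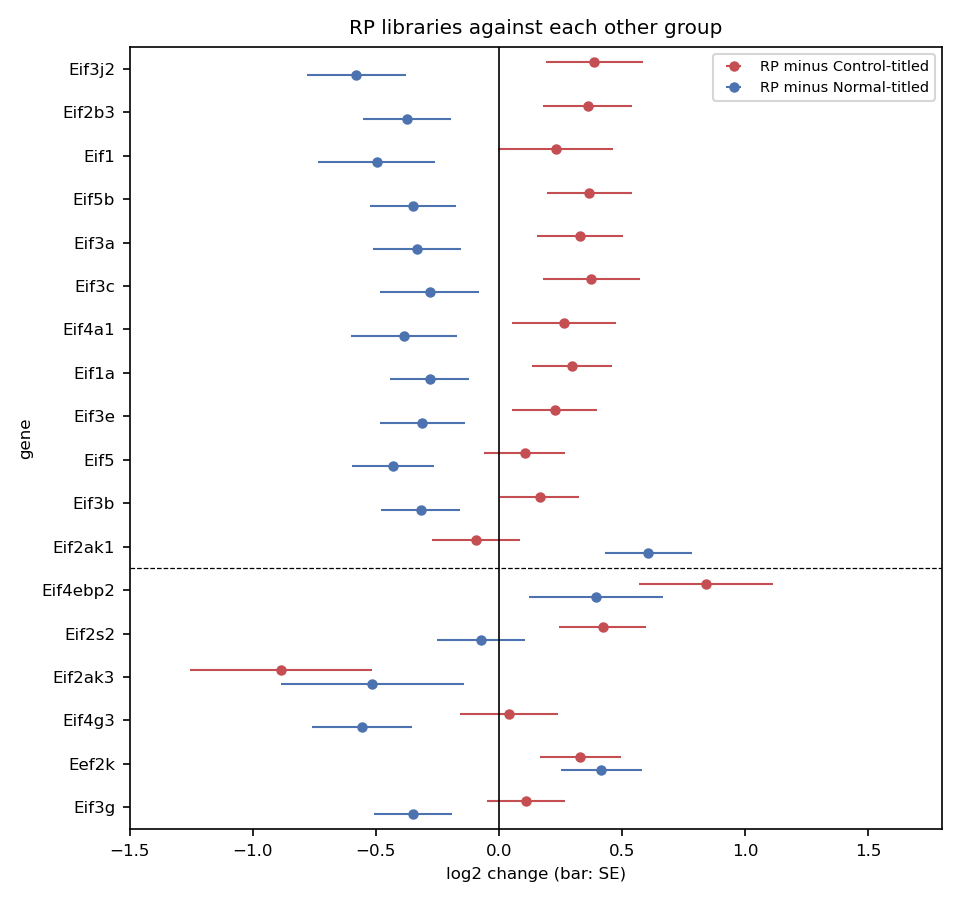
Log2 change of RP against Control-titled (red) and against Normal-titled (blue) libraries, with SE, for the 12 genes called between the titled groups (above the dashed line) and 6 further genes with an unadjusted p under 0.05 in an RP comparison. Eif4ebp2 lies at 0.84 and Eif2ak3 at -0.89 in red, and Eif2ak1 at 0.61 in blue. No gene shown passed the test in either comparison. The 12 genes were chosen with the same Control-titled and Normal-titled libraries that are used here.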

How the data were processed

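RNA of gastrocnemius muscle was measured in 8 libraries, 3 titled Normal, 3 titled Control and 2 titled RP, with a Lexogen QuantSeq 3' kit and 500 ng of total RNA per library, per the labels' protocols. The authors deposited 1 table per library with raw read counts for 23282 gene symbols and no normalization. Bowtie2, edgeR and the mm10 build are listed in the submitters' processing notes; versions, the counting tool, the annotation and the strand counted are not given in the sources used here. Of the rows, 5430 had no count, and 44 extra rows of repeated symbols were kept under names of their own. No per-sample column was left unmapped.

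Counts were fitted in R 4.3.3 with edgeR 4.0.16 (TMM, filterByExpr, quasi-likelihood test, 1 fit of all 8 libraries, common biological coefficient of variation 0.195). Tests were two-sided, with Benjamini-Hochberg adjustment over 13174 genes per comparison and a threshold of 0.05. Intervals of 95% came from the SE and the fitted degrees of freedom. Log2 CPM for correlations had an offset of 0.5 counts, and log2 CPM for the heat map had no offset. Ratios of paralogs were tested by exact permutation over libraries. Alternatives were RLE and upper-quartile scaling, DESeq2 1.42.0, limma-voom (limma 3.58.1), no filter, a filter at a mean CPM of 5, only the groups compared, a replicate block, haemoglobin genes and Rn45s left out, Hba-a1 as a covariate, a threshold of 0.1 and leaving out each library. The sum of Eif3j1 and Eif3j2 was added after the data were seen.

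The members, the role and pathway lists, the markers and the motifs were chosen with earlier results of these data known. Named were all members called, the highest and lowest member of each role, 26 members fixed by name, pathway genes called (up to 4 per list) and the 3 genes most like Eif1a. Members described beyond that rule (Eif2s2, Eif3g, Eif4e2, Eif2ak3 and Eif4ebp3) were chosen after their values were seen. Positions and promoters came from RefSeq, shared exons and 3' words from GENCODE mouse release 21. On simulated data, the pipeline recovered 8.96% of 1.5-fold and 62.7% of 2-fold changes in Control-titled against Normal-titled libraries. It recovered 5.97% and 59.7% in RP against Control-titled libraries, and 8.96% and 65.7% in RP against Normal-titled ones. Of the calls on simulated data, 6.56 to 7.32% were false. For Control-titled against Normal-titled, 67 genes were changed by 1.5-fold, 67 by 2-fold and 66 by 4-fold, of 12943 tested. All had a mean above 5 CPM. In the data 10.4% of genes were called, a larger share, so the recovery need not hold there. It does not cover genes at lower levels, such as Eif5a2. A gene that was not called may still have changed by 1.5-fold or 2-fold. Figures were drawn with matplotlib 3.10.9.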

Additional observations from a re-analysis of the deposited data

How the results depend on the processing

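In Control-titled against Normal-titled muscle, where 12 translation factor genes were called, 6 were called with a replicate block and 2 with Hba-a1 as a covariate. Leaving out 1 library gave 1 to 21 calls, counts given without the share of all genes called in those fits. In RP against Control-titled muscle, where 0 were called, no filter gave 1 (Eif4ebp2). In RP against Normal-titled muscle, where 0 were called, no filter gave 1, DESeq2 gave 1 and a threshold of 0.1 gave 1 (Eif2ak1 each time), and leaving out 1 library gave 0 to 2. The replicate numbers are not tied by the labels to an animal or day. Deviations from the group means correlated at -0.063, -0.016 and -0.039 between same-numbered Normal and Control libraries. With 3 libraries per group, such values cannot decide whether the numbers pair the samples. The block changed no other count. Upper-quartile scaling gave 8 calls in the first comparison, and the reported calls kept under it numbered 7. Of the 12 called genes, Eif3j2 was called in 18 of 19 alternatives, Eif5b, Eif3a and Eif2b3 in 16, Eif2ak1 in 15, Eif1a and Eif3c in 14, Eif5 in 9, Eif3e in 8, Eif1 and Eif3b in 7 and Eif4a1 in 6. None of the 12 changed sign in these alternatives.

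Of the 59 genes in that comparison, 49 were below 0 as reported and 36 with Hba-a1 as a covariate. Genes named in the text that changed sign were not called where the sign differed. With Hba-a1 as a covariate the log2 change was 0.48 for Eif3i, 0.15 for Eef2kmt, 0.49 for Eif2d, 0.24 for Eef1b2, 0.17 for Eef1d, 0.31 for Eef1g, 0.20 for Eif4g2, 0.078 for Eif2s1 and 0.0036 for Eif3f. For Eif4g2 it was 0.040 with upper-quartile scaling, 0.012 with a mean CPM of at least 5, 0.0030 with limma-voom, 0.0016 with the replicate block and 0.0037 without haemoglobin genes and Rn45s. When libraries were left out in turn, log2 changes ran from -0.22 to 0.095 for Eif3i, -0.20 to 0.14 for Eif2d, -0.12 to 0.22 for Eef1a2, -0.17 to 0.043 for Eef1g, -0.46 to 0.078 for Eif5a2 and -0.098 to 0.075 for Eif4g2. The difference in the log2 ratio of Eef1a1 to Eef1a2, reported as -0.30, ran from -0.56 to -0.17 when libraries were left out. The cause of these shifts was not tested. Depth limits the rows outside the filter, Eif4e1b and Eif3j1, and Eif5a2, with 12 to 27 counts per library; the spread between libraries and the number of RP libraries also limit precision.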
